A study of Rattus norvegicus with 12 samples.

Results

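The genes described here are 10 early response genes of rat liver: Fos, Jun, Junb, Egr1, Ier2, Ier3, Dusp1, Btg2, Atf3 and Zfp36. They were chosen by name, and every probe set that the platform annotation pairs with 1 of these symbols and no other was used. This gave 13 probe sets for 9 genes, out of 31042 probe sets and 14217 named genes; Btg2 was not analysed here. The livers came from male Wistar rats, an outbred laboratory strain, aged 5 weeks. For 11 days 6 of the animals ate a purified diet with 20% maple syrup, and 6 ate that diet with 20% of a syrup mixed to a similar sugar composition (sugar mix). Both diets followed 4 days on the purified diet alone and ended with a fast of 16 hours, anaesthesia and dissection, after which the livers were kept in an RNA preservative. The labels put 7 rats on maple syrup and 8 on the sugar mix, and the animals beyond these 12 were not analysed here.

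Immediate early genes are transcribed within minutes of a stimulus, from transcription factors already present in the cell, and their messenger RNAs are short-lived. Many encode transcription factors: Fos, Jun and Junb are subunits of AP-1, Atf3 is a related factor that responds to stress, and Egr1 is a zinc finger factor switched on through serum response factor. Others end the response, among them the phosphatase Dusp1 and the RNA-binding protein Zfp36. In liver they are known to respond to growth signals, stress hormones, low oxygen, injury and the handling of the tissue.

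The 250 bases before the transcription start of 5 of these genes are printed because these genes gave the highest correlations over the animals, Egr1, Ier2 and Junb with each other and Dusp1 with Zfp36. The sequences are from RefSeq, build GRCr8, where 6 of the 10 genes were matched by symbol. Capitals mark the CArG box (the site of serum response factor), TGACG on either strand (the core of the cAMP response element) and GCGGGGGCG (a site of EGR factors).
Egr1, chr18:26736828-26737077, strand +: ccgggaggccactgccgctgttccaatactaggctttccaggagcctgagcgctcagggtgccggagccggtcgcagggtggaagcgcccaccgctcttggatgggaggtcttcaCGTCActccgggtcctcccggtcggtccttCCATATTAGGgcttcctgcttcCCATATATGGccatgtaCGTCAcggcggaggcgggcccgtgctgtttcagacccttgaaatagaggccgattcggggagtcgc
Ier2, chr19:40399123-40399372, strand +: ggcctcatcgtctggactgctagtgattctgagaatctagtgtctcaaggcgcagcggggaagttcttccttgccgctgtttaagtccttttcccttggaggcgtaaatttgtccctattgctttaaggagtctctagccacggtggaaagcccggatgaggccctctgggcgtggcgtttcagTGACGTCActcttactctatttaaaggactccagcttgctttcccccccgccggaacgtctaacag
Junb, chr19:40080876-40081125, strand +: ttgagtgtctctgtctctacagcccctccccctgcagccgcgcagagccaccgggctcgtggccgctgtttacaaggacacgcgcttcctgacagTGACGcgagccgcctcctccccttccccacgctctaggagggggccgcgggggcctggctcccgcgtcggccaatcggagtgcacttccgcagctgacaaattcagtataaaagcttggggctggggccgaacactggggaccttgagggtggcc
Dusp1, chr10:17184603-17184852, strand +: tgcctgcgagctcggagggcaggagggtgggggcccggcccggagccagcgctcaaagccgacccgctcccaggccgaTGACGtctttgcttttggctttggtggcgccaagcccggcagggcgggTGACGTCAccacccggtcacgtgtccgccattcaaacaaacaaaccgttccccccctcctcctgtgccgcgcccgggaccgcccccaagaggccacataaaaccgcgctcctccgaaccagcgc
Zfp36, chr1:92799109-92799358, strand -: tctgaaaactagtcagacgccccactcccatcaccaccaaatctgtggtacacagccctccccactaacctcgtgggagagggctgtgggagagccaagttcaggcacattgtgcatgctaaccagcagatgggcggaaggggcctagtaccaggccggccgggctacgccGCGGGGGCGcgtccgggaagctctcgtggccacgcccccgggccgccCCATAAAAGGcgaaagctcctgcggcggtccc

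The Egr1 window held 2 CArG boxes and 2 TGACG cores, and the Zfp36 window held 1 CArG box and 1 EGR site. Ier2 and Dusp1 each held the full palindrome TGACGTCA, which counts as a TGACG core on both strands, and Dusp1 held 1 further core. Junb held 1 TGACG core. Of all 33469 promoter windows of this length, 1.5% held a CArG box, 1.59% TGACGTCA, 18.2% TGACG and 2.45% the EGR site, each on either strand. AP-1 sites written as TGANTCA, in 6.34% of all windows, had no match in these 5, and the letters TATAAA, in 12.9%, were found in Junb alone. These matches describe letters in the window and were not tested as binding sites.

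The deposited value is a level per probe set that resembles a log2 intensity but varies far less between animals than such intensities do, so no fold change is given. Over all probe sets the median standard deviation over the 12 arrays was 7.14e-06. Egr1 had a standard deviation of 0.0183, at the 99.8 percentile of all probe sets, and 9 of the 13 probe sets lay above the 90th percentile. The low end was the brighter Fos probe set, at the 5.49 percentile with a standard deviation of 1.32e-06. Whether spread in this score differs between genes because of the animals or because of the scale cannot be told apart, and levels of different probe sets were not set against each other. Values below are therefore standardised: they are given in standard deviations (SD) of that probe set over the 12 animals, with 0 as their mean. Diet differences are given as Hedges' g, the mean of maple syrup minus that of sugar mix, divided by the pooled standard deviation within diets. Array medians lay between 7.36619 and 7.36632. The 11 measured hepatocyte markers, such as albumin, had levels of 11.35 to 15.21 in a table that ran from 5.56513 to 15.2071. The labels name no batch, and the time between anaesthesia and preservation is not given in the sources used here. The number of arrays limits the precision.

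No difference between the diets was detected in any of the 9 genes. With limma and Benjamini-Hochberg adjustment over all probe sets, 0 of the 13 probe sets were higher and 0 were lower with maple syrup, against a background of 0% of all probe sets called higher and 0% called lower (smallest adjusted p = 0.915 over all). At an unadjusted p of 0.05 the count was also 0 of 13, where 4.07% of all probe sets fell below that value. Every one of the 13 had an adjusted p of 1. In none of the 13 did the diets separate without overlap, where 0.11% of all probe sets did. The g was above 0 for 6 probe sets and below 0 for 7, between -1.0 and 0.81, and each of the 13 intervals of 95% included 0. Its median was -0.08 over the 13 and -0.02 over all probe sets. The intervals reach differences of over 1 SD in at least 1 direction for every probe set, so differences of that size were not excluded with 6 animals per diet.

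**Figure D1:**
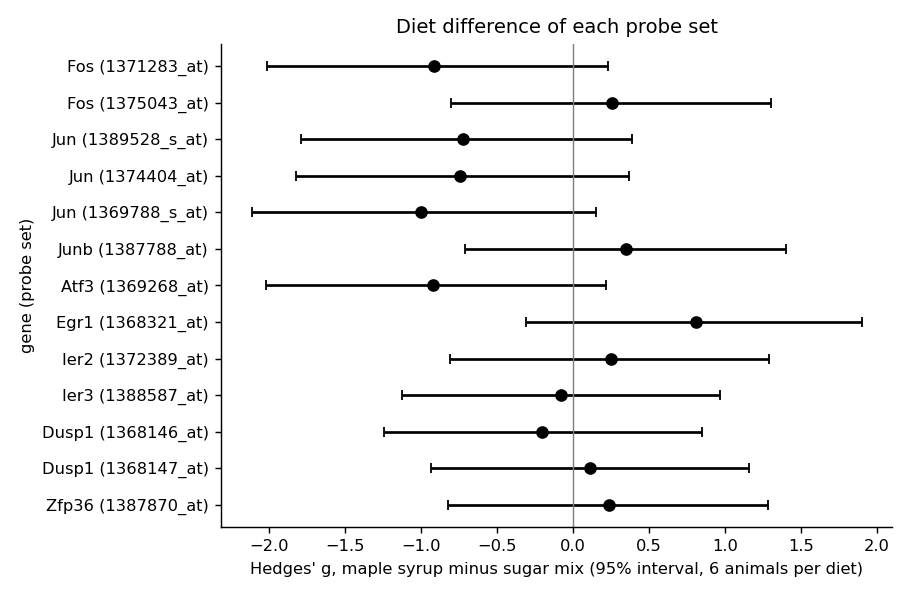
Hedges' g of each probe set (maple syrup minus sugar mix, horizontal axis in units of the standard deviation within diets) with its 95% interval as a bar, for 6 animals per diet. The 13 points lie between -1.0 and 0.81 and every interval crosses 0.

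Among the subunits of AP-1, Jun gave the most uniform picture across its 3 probe sets. Its brightest probe set stood at a lowest value of -1.12, a median of -0.30 and a highest value of 0.09 SD with maple syrup, against -1.20, 0.38 and 1.94 SD with sugar mix. Sugar mix replicates 1, 3 and 4 were above every maple syrup animal, at 1.38, 1.23 and 1.94 SD, and the other sugar mix animals lay within or just below the maple syrup range. The g of Jun was -0.72 (95% interval -1.79 to 0.39), and maple syrup was higher in 15 of the 36 pairs of 1 animal from each diet. The other probe sets of Jun gave g = -0.74 and g = -1.0. In the deposited score the standard deviation between animals of the brightest probe set was 0.000727 with maple syrup and 0.00218 with sugar mix; this difference in spread was not tested. The 3 probe sets of Jun followed each other closely, with Pearson r from 0.97 to 0.98 over the 12 animals. Of these probe sets 2 come from the same expressed sequence in the annotation, so they are not independent readings of the gene.

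Fos, the partner of Jun in AP-1, was read by 2 probe sets that did not follow each other (r = -0.12, rho = -0.06). The brighter one had a lowest value of -1.80, a median of -0.32 and a highest value of 0.90 SD with maple syrup, against -0.48, 0.24 and 1.85 SD with sugar mix. The dimmer one stood at -1.26, 0.53 and 1.32 SD with maple syrup, against -1.30, -0.37 and 1.11 SD with sugar mix. The diets overlapped in both, and sugar mix replicate 1 was high in both, at 1.85 and 1.11 SD. The g was -0.91 (95% interval -2.01 to 0.23) for the first and 0.26 (95% interval -0.80 to 1.30) for the second. Their levels were 6.84 and 6.42, and no single direction can be stated for Fos.

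Junb, another AP-1 subunit, had a lowest value of -1.17, a median of 0.26 and a highest value of 1.56 SD with maple syrup, against -1.23, -0.33 and 1.42 SD with sugar mix. Maple syrup replicates 2, 4 and 5 and sugar mix replicate 6 stood between 0.76 and 1.56 SD, and the remaining 8 animals lay at -0.11 SD or lower. The g of Junb was 0.35 (95% interval -0.71 to 1.40). Atf3, which pairs with Jun proteins and is induced by stress, stood at a lowest value of -1.41, a median of -0.68 and a highest value of 1.27 SD with maple syrup, against -0.18, 0.06 and 2.26 SD with sugar mix. Sugar mix replicate 4 and maple syrup replicate 3 were the highest, at 2.26 and 1.27 SD, and the other 5 maple syrup animals were all below every sugar mix animal. The g of Atf3 was -0.92 (95% interval -2.02 to 0.22), and maple syrup was higher in 5 of 36 pairs. The unadjusted limma p was 0.102. Its level was 6.87, and its standard deviation of 3.05e-05 was smaller than the gap between array medians. The moderated t, -1.79 as deposited, was -0.69 under quantile normalization and -0.24 under median centring. With single arrays left out it lay between -2.94 and -1.34.

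Egr1 had the widest spread of the 13 probe sets in the deposited score. It had levels of 8.3148, 8.3237, 8.2978, 8.3333, 8.3324 and 8.3062 in maple syrup replicates 1 to 6, against 8.3120, 8.2809, 8.2801, 8.3050, 8.3066 and 8.3323 in sugar mix replicates 1 to 6. The low end was held by sugar mix replicates 2 and 3, while maple syrup replicates 4 and 5 and sugar mix replicate 6 were at the top. The mean was 8.3180 ± 0.0144 with maple syrup and 8.3028 ± 0.0198 with sugar mix (SD, n = 6 each). Maple syrup was higher in 27 of 36 pairs, the most among the 13 probe sets, with g = 0.81 (95% interval -0.31 to 1.90) and an unadjusted limma p of 0.144. The largest positive g of the 13 therefore came from groups that overlapped over most of their range.

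Ier2, an early response protein of the nucleus, had a lowest value of -1.65, a median of 0.39 and a highest value of 1.38 SD with maple syrup, against -0.86, -0.36 and 1.04 SD with sugar mix. The lowest and the highest animal of all 12 were both from the maple syrup group, replicates 6 and 4. Its g was 0.25 (95% interval -0.81 to 1.29). Ier3, which is known to protect cells from death signals, had a lowest value of -2.01, a median of 0.10 and a highest value of 1.46 SD with maple syrup, against -0.78, -0.15 and 1.76 SD with sugar mix. Maple syrup replicate 6 was again the lowest, and sugar mix replicate 1 was the highest. The g of Ier3 was -0.08 (95% interval -1.12 to 0.97).

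Dusp1 encodes a phosphatase that switches off the kinases which induce early genes. Its brighter probe set had a lowest value of -1.41, a median of -0.33 and a highest value of 1.24 SD with maple syrup, against -1.48, 0.29 and 1.48 SD with sugar mix. Both diets covered nearly the same range, with sugar mix replicate 1 and maple syrup replicate 1 at the top. The g was -0.20 (95% interval -1.24 to 0.85), and the second probe set, which followed the first with r = 0.92, gave g = 0.11. Zfp36, a protein that destabilises messenger RNAs of early and inflammatory genes, had a lowest value of -2.05, a median of 0.41 and a highest value of 1.58 SD with maple syrup, against -0.52, -0.36 and 0.68 SD with sugar mix. Both extremes were maple syrup animals, replicate 3 at the bottom and replicate 6 at the top. In the deposited score the standard deviation of Zfp36 was 0.00145 with maple syrup and 0.000514 with sugar mix, the reverse of the order seen for Jun; neither difference in spread was tested. The g of Zfp36 was 0.24 (95% interval -0.82 to 1.28).

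**Figure D2:**
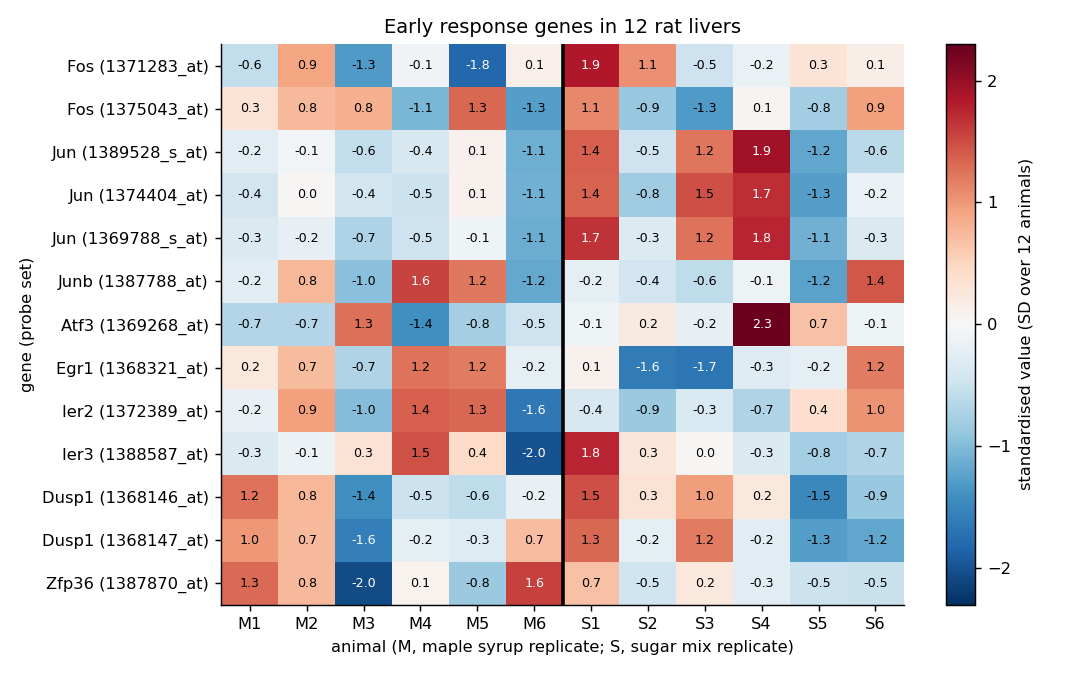
Standardised value (colour and number, in SD over 12 animals) of the 13 probe sets in rows, with the 6 maple syrup animals on the left and the 6 sugar mix animals on the right. The 3 Jun rows match each other and are high in sugar mix replicates 1, 3 and 4, while Junb, Egr1 and Ier2 are high in maple syrup replicates 2, 4 and 5 and sugar mix replicate 6.

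The 9 genes did not rise and fall as 1 set over the livers. With each gene read by its brightest probe set, the median Pearson r over the 36 gene pairs was 0.03, beside 0.01 over all pairs of named genes, and 18 pairs were above 0 and 18 below. A few pairs were far above that. An r of at least 0.7 was found in 3 of the 36 pairs (8.33%), where 0.957% of all gene pairs reached it. These were Junb with Ier2, Junb with Egr1 and Egr1 with Ier2. They join the same 3 genes, so they are not independent of each other. Most member probe sets had a larger spread than most probe sets, and the background was not matched for this. All correlations are over 12 animals, with two-sided p from 100000 permutations adjusted over the 36 pairs by Benjamini-Hochberg; in all, 1 pair passed by r and 0 by Spearman's rho.

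Junb and Ier2 had r = 0.83 (permutation p = 0.00123, adjusted p = 0.0443) and rho = 0.71 (permutation p = 0.0115, adjusted p = 0.104). Without the 2 animals farthest from the median of Junb, r was 0.74, and without the 2 farthest for Ier2 it was 0.72. This call did not hold under other normalizations: r was -0.13 (adjusted p = 0.933) under quantile normalization and 0.46 (adjusted p = 0.513) under median centring, and the pair passed in 5 of 16 alternatives, with adjusted p from 0.00108 to 0.933. Junb and Egr1 had r = 0.77 (adjusted p = 0.0577) and rho = 0.74 (adjusted p = 0.104). Their r was 0.63 without the 2 animals farthest for Junb and 0.94 without the 2 farthest for Egr1. It was -0.29 under quantile normalization. Egr1 and Ier2 had r = 0.76 (adjusted p = 0.0577) and rho = 0.82 (adjusted p = 0.0612). Their r was 0.88 without the 2 animals farthest for Egr1 and 0.62 without the 2 farthest for Ier2. The same 4 animals, maple syrup replicates 2, 4 and 5 and sugar mix replicate 6, were the highest in all 3 genes. Over the other 8 animals r was 0.14 (rho = 0.05) for Junb with Ier2, 0.04 (rho = 0.14) for Junb with Egr1 and 0.17 (rho = 0.38) for Egr1 with Ier2. The 4 livers were picked after the values were seen and for being high, and leaving out the high end lowers any correlation, so these values are a description. Junb with Egr1 passed in 4 of the 16 alternatives (adjusted p from 0.0364 to 0.933) and Egr1 with Ier2 in 3 (from 0.0265 to 0.174). As deviations from the diet means the 3 correlations were 0.83, 0.77 and 0.78 (adjusted p = 0.0338, 0.0472 and 0.0472). The permutations moved deviations between the diets although they were centred within each diet, so these adjusted p may be too small. Within diets they were 0.99, 0.96 and 0.93 over the 6 maple syrup animals and 0.50, 0.66 and 0.76 over the 6 sugar mix animals, and the difference between the diets was not tested.

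The next pair was of feedback genes. Dusp1 and Zfp36 had r = 0.68 (permutation p = 0.0145, adjusted p = 0.13) and rho = 0.73 (adjusted p = 0.104). Their r was 0.53 without the 2 animals farthest for Dusp1 and 0.78 without the 2 farthest for Zfp36. Within diets r was 0.80 with maple syrup and 0.84 with sugar mix. Jun and Dusp1 had r = 0.60 (permutation p = 0.0392, adjusted p = 0.282) and rho = 0.66, with r = 0.24 over the maple syrup animals and 0.78 over the sugar mix animals. None of these passed after adjustment on the values as deposited. Dusp1 with Zfp36 passed in 1 of 16 alternatives (adjusted p from 0.0265 to 0.478), and Jun with Dusp1 in 0. Dusp1 had an r of -0.02, -0.19 and -0.21 with Junb, Ier2 and Egr1. The lowest of the 36 were Atf3 with Ier2 (r = -0.50, adjusted p = 0.488, rho = -0.58) and Atf3 with Junb (r = -0.48, adjusted p = 0.488, rho = -0.46). Neither passed, and the r of Atf3 with Junb was 0.29 under quantile normalization and 0.38 under median centring. Jun had an r of 0.11 with Fos, its classical partner, from a Fos probe set of very small spread.

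**Figure D3:**
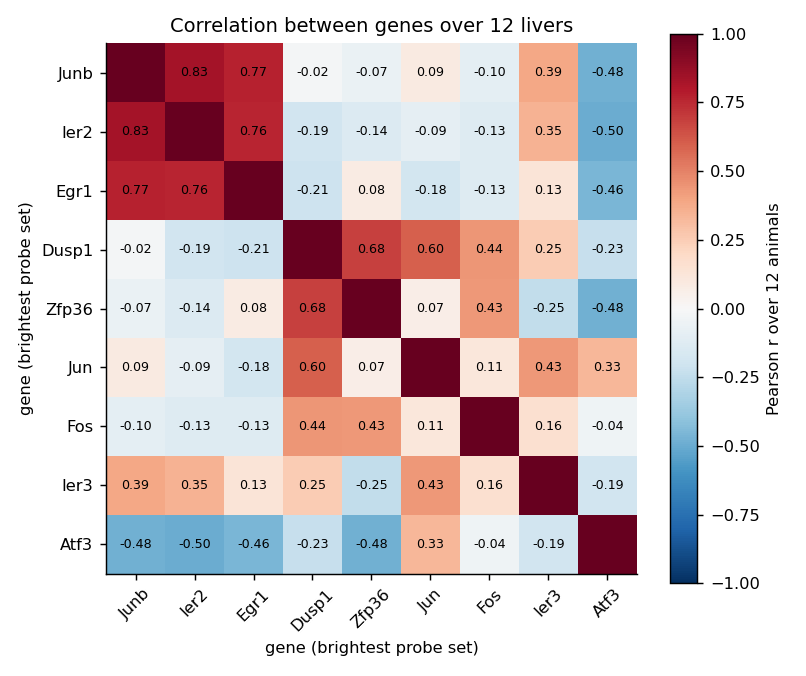
Pearson r over the 12 animals for every pair of the 9 genes, each by its brightest probe set (colour from -1 to 1, with the value printed). Junb, Ier2 and Egr1 form a block with r from 0.76 to 0.83, Dusp1 is at 0.68 with Zfp36 and 0.60 with Jun, and Atf3 is at -0.50 to -0.46 with the first block.

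**Figure D4:**
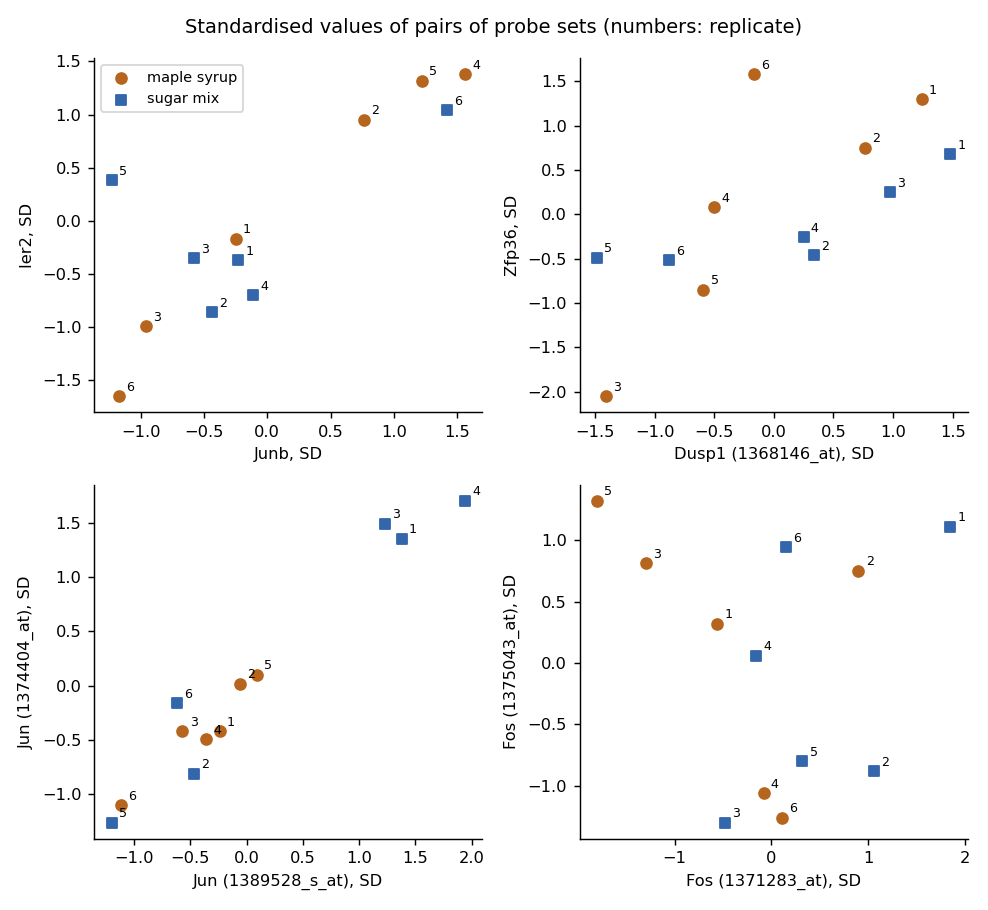
Standardised values of 4 pairs of probe sets in each animal, in SD over 12 animals; circles are maple syrup, squares are sugar mix, and the digit is the replicate. In the panel of Junb and Ier2, 4 animals stand apart at the upper right; the 2 Jun probe sets fall on a line (r = 0.98) and the 2 Fos probe sets do not (r = -0.12).

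Averaged over the 9 genes, no animal was high in all of them. The mean standardised value ran from -0.60 in maple syrup replicates 3 and 6 to 0.68 in sugar mix replicate 1. It averaged -0.02 ± 0.46 with maple syrup and 0.02 ± 0.43 with sugar mix (SD, n = 6 each), a difference of -0.05. Sugar mix replicate 1 was above the mean in 6 of the 9 genes and led in Fos, Ier3 and Dusp1, with Jun at 1.47 SD. Maple syrup replicate 2 was also above the mean in 6 genes but above 1 SD in none. Maple syrup replicate 4 was high in Junb, Egr1, Ier2 and Ier3, at 1.25 to 1.56 SD, and the lowest of all animals in Atf3. Sugar mix replicate 4 was high in Jun and Atf3, at 1.80 and 2.26 SD, and at or below 0.01 SD in the other 7 genes. Maple syrup replicate 6 was the lowest animal in Ier2 and Ier3 but the highest in Zfp36. The animals therefore differed in which early genes were high.

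**Figure D5:**
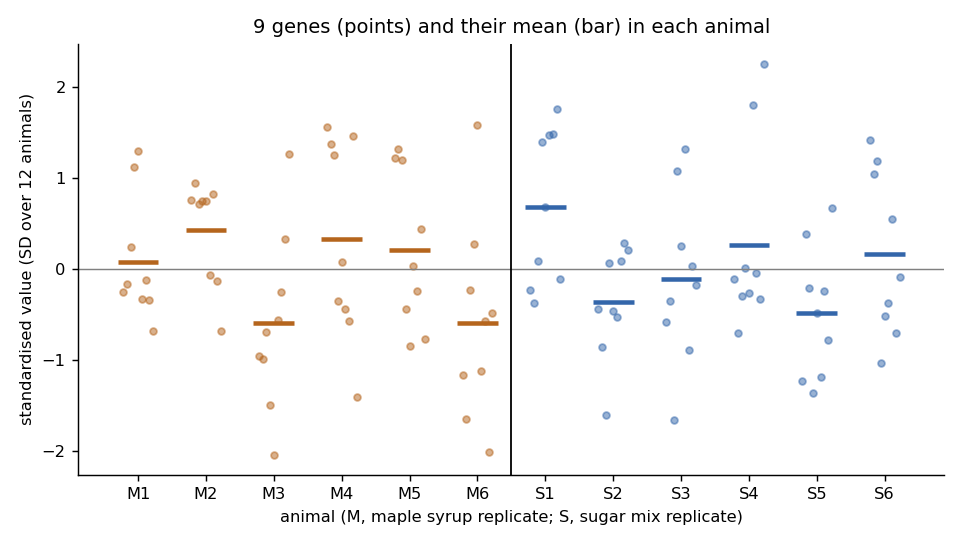
Standardised values of the 9 genes (points, mean of a gene's probe sets, in SD over 12 animals) and their mean (bar) in each animal, with maple syrup on the left of the line and sugar mix on the right. The bars run from -0.60 to 0.68 and the points spread widely within every animal.

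Among 26 other early response transcription factors, 11 were higher and 15 lower with maple syrup, 0 were called in either direction and 0 had an unadjusted limma p under 0.05, with a median g of -0.11. Of 40 early response genes for feedback regulators, secreted factors and enzymes, 24 were higher and 16 lower, 0 were called and 2 had an unadjusted p under 0.05, with a median g of 0.22. Over all 14217 named genes the median g was -0.04, with 6696 higher, 7521 lower, 0 called and 592 under an unadjusted p of 0.05. The 4 factors with the smallest p were Klf5, a Krüppel-like factor (g = -1.14), Nfil3, a repressor linked to the circadian clock (g = -0.97), Nr4a1, an orphan nuclear receptor (g = 0.80), and Myc, a factor of cell growth (g = 0.74). In the other list they were Socs3, a feedback inhibitor of cytokine signalling (g = -1.53, 95% interval -2.74 to -0.27), Nab2, a co-repressor of EGR factors (g = 1.43, 95% interval 0.19 to 2.61), Gadd45a, a gene of growth arrest (g = 1.06), and Plk2, a kinase (g = 0.99). Socs3 stood at -1.43, -0.75 and 0.27 SD with maple syrup (lowest, median, highest), against -0.44, 0.61 and 1.99 SD with sugar mix. Nab2 stood at -0.43, 0.67 and 1.5 SD with maple syrup, against -1.97, -0.57 and 0.41 SD with sugar mix. All 8 had an adjusted p of 1 in limma, and their intervals make no allowance for the choice by p. Under median centring the moderated t of Socs3 turned to 0.38 and that of Klf5 to 0.45, against -2.95 and -2.19 as deposited. Array medians differed by more than the standard deviation of either probe set (7.21e-06 and 6.28e-06). Centring therefore cannot decide their direction, and neither was called as deposited. The moderated t of Nab2 was 0.30 under quantile normalization and 1.10 under median centring, against 2.76 as deposited. In that order it was 0.45, 0.82 and 1.52 for Nr4a1 and -0.62, -1.42 and -1.89 for Nfil3. It was 1.14, 1.73 and 1.44 for Myc, 1.57, 2.29 and 2.07 for Gadd45a and 1.49, 1.96 and 1.93 for Plk2. Array medians also differed by more than the standard deviations of Nab2 (1.08e-05) and Nr4a1 (4.8e-06). Of 17 upstream kinases and factors, 7 were higher and 10 lower, 0 were called and 2 had an unadjusted p under 0.05, with a median g of -0.16.

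The 66 other early genes, without the upstream kinases and factors, were also set against each member over the animals. Of the 66, 7 had an r of at least 0.5 with Egr1 (10.6%, beside 6.74% of all other named genes). The count was 9 with Junb (13.6%, beside 5.95%), 8 with Dusp1 (12.1%, beside 7.84%) and 3 with Fos (4.55%, beside 10.4%). It was 7 with Jun (10.6%, beside 5.07%), 7 with Ier2 (10.6%, beside 5.86%) and 9 with Zfp36 (13.6%, beside 7.55%). For Ier3 it was 6 (9.09%, beside 7.78%) and for Atf3 3 (4.55%, beside 5%). These shares rest on few genes, and their differences were not tested. The following genes were picked after their values were seen. Maff, a small Maf factor, and Dusp5, a phosphatase of nuclear ERK, had r = 0.79 and 0.77 with Egr1, r = 0.81 each with Junb and r = 0.80 each with Ier2. The standard deviations of Maff and Dusp5, 6.66e-05 and 2.28e-05, were smaller than the gap between array medians. Their correlations were not examined under other normalizations. For Zfp36 the highest were Pim3 (r = 0.86) and Ccn2 (r = 0.84), and for Dusp1 it was Gadd45b (r = 0.81). These correlations over 12 animals are descriptions, since the genes were picked as the top 1 or 2 of 66 for each member.

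Among 14208 other named genes, those whose values were most like the mean of the 9 genes over the 12 animals were Nyap1 (r = 0.87, rho = 0.87), Prss55 (r = 0.84, rho = 0.86), Cldn18 (r = 0.82), Ypel4 (r = 0.82) and Ampd1 (r = 0.81). Their levels were 6.27 to 7.01, and their standard deviations were 9.52e-07 to 5.73e-06. The least like were Gne (r = -0.87), Zbed4 (r = -0.84) and Vkorc1 (r = -0.82). They are the extremes of many genes over few animals, and nothing is read from the names.

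Lists for other stress responses and cell types were described by the mean standardised value of their members. For comparison, the mean of the 40 other early feedback and secreted genes had r = 0.55 with the mean of the 9 early genes (rho = 0.57). That of the 26 other early transcription factors had r = 0.40 (rho = 0.36), and that of the 17 upstream kinases and factors r = -0.02 (rho = -0.17). Heat shock genes had 2 of 9 higher and 7 lower with maple syrup, and their mean had r = 0.06 with the mean of the 9 early genes. Hypoxia response genes had 7 of 14 higher and 7 lower (r = 0.41), glucocorticoid response genes 6 of 12 higher and 6 lower (r = -0.21), and genes of the integrated stress response 7 of 11 higher and 4 lower (r = -0.37). No gene of these lists was called. The mean of hepatocyte markers had r = -0.54 with that of the early genes (rho = -0.28). It ran from -0.19 to 0.28 SD with maple syrup and from -0.63 to 0.53 SD with sugar mix. Sugar mix replicate 1 was the lowest. Each marker counted equally, including albumin and Ahsg, which were nearly constant in the deposited score (standard deviations 5.22e-09 and 1.06e-07). This mean is therefore not read as hepatocyte content. The mean of T, NK and B cell markers had r = -0.53 and ran from -0.71 to 0.56 SD with maple syrup and from -0.42 to 0.74 SD with sugar mix. For erythroid and blood markers r was -0.33 and rho -0.57. For Kupffer cell and macrophage markers r was -0.02, for sinusoidal endothelial markers 0.15, for stellate cell markers -0.13, for cholangiocyte markers 0.00 and for neutrophil markers -0.01. In whole liver, fewer cells of a type and less RNA per cell cannot be told apart. Of the array's RNA controls, the 3′, middle and 5′ probe sets of hexokinase had r = 0.51, 0.64 and 0.38 with Egr1. Those of GAPDH had r = -0.30, -0.38 and -0.29, and those of beta-actin -0.40, -0.43 and -0.37. With Dusp1 the same order gave 0.08, -0.37 and 0.26 for hexokinase, 0.44, 0.36 and 0.27 for GAPDH and 0.46, 0.30 and 0.28 for beta-actin. With Jun all 9 lay between -0.41 and 0.06. Between the 9 control probe sets and the mean of the 9 genes r lay between -0.32 and 0.30. These correlations over 12 animals are descriptions, and the part of cell makeup or RNA quality in the values of the early genes was not tested. Each GAPDH and beta-actin control probe set had a lower mean with maple syrup, at -0.50 to -0.28 SD against 0.28 to 0.50 SD with sugar mix. Each hexokinase one had a higher mean, at 0.23 to 0.38 SD against -0.38 to -0.23 SD. The diet differences of the controls were not tested.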

How the data were processed

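RNA from 12 livers (2 ug each, biotin-labelled) was measured on Affymetrix arrays, per the labels' protocols. The deposited table holds the authors' processed value for each probe set and is used as a score; how it was summarised and normalised is not stated in the labels. The design had assumed log2 values. The deposited levels resemble log2, but their differences are compressed, so the fixed test was kept and no fold is reported. Its variances are moved toward a shared trend (prior degrees of freedom 0.707), so p depends in part on spread.

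Gene names came from the platform annotation and RefSeq: 20826 of the 31042 tested probe sets had 1 symbol. The 57 controls were not tested. limma 3.58.1 (R 4.3.3) compared the diets, 6 arrays each as labelled, by lmFit and trended eBayes without a block, two-sided, with Benjamini-Hochberg adjustment over all tested probe sets and a threshold of 0.05. Intervals of g used the noncentral t distribution. Lists and gene pairs used each gene's brightest probe set. Correlations were computed with numpy 2.4.6, and matplotlib 3.10.9 drew the figures. Scripts were tested on simulated data.

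The members and gene lists were chosen with earlier results of these data known. Named genes were all member probe sets; the 4 genes with the smallest p of each list of other early genes; the 5 highest and 3 lowest correlates of the member mean; and the 5 highest and 2 lowest member pairs. Same-numbered animals were not paired: the correlation of their deviations lay between -0.03 and 0.12, above 0.1 for 1 of 6 numbers. Alternatives were quantile normalization, median centring, a filter on the lowest 30%, 1 probe set per gene, other variance models, weights for arrays, a replicate block, leaving out single arrays, Spearman's rho and deviations from diet means. The mean of a gene's probe sets and the removal of 4 animals were added after seeing the data.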

Additional observations from a re-analysis of the deposited data

Results flagged for a closer look

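Of 60 tests of whether 1 liver stood far from the other 5 fed alike, 4 were positive, and about 3 (1 in 20) arise by chance. Atf3 was at 1.27 SD in maple syrup replicate 3 and at 2.26 SD in sugar mix replicate 4. In sugar mix replicate 1, the liver with the highest mean of the 9 early genes, Gne was at -1.23 SD and Vkorc1 at -1.18 SD; both were named for their low correlation with that mean.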

How the results depend on the processing

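In limma, 0 member probe sets and 0 probe sets in all were called in every alternative that was run: quantile normalization, median centring, the low filter, 1 probe set per gene, no trend, a robust fit, array weights, the replicate block and each array left out. At an unadjusted p of 0.05, from 314 (median centring) to 1622 (without sugar mix replicate 6) probe sets would be counted in fits to all of them, and at most 2 of the 13 members. With the replicate block 0 members and 0 probe sets were called, and 1359 probe sets had an unadjusted p under 0.05; the block changed no call, and 1 of 6 numbers joined animals that correlated best with each other. The difference of the member mean, -0.05, was -0.21 under quantile normalization, 0.15 under median centring, -0.12 with the brightest probe sets and between -0.16 and 0.09 with single arrays left out, so it has no settled sign. The median correlation between members, 0.03, was 0.12 and 0.25 under these normalizations, -0.02 by Spearman's rho, 0.11 with the mean of a gene's probe sets and -0.06 to 0.10 with single arrays left out. Median centring takes the same value from every gene of an array. The gap between array medians exceeds the spread of Fos, Atf3 and Junb, so the 0.15 and 0.25 under median centring cannot decide either quantity.

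The moderated t changed sign under quantile normalization for the dimmer Fos probe set (-1.01) and Junb (-2.13), under median centring for the brighter Fos probe set (0.66), Klf5 (0.45) and Socs3 (0.38), and with array weights for Ier3 (0.09). For the brighter Fos probe set, Klf5 and Socs3 the array medians differed by more than the spread, so median centring cannot decide the direction. With single arrays left out the moderated t crossed 0 for Ier3 (-0.69 to 0.63) and Zfp36 (-0.04 to 1.61). It also did so for both Dusp1 probe sets (-1.0 to 0.09 and -0.18 to 0.85). Under quantile normalization r changed sign for Junb with Ier2 (-0.13), Junb with Egr1 (-0.29) and Junb with Atf3 (0.29), and under median centring for Junb with Atf3 (0.38); the cause was not tested, but the gap between array medians exceeds the spread of Junb (standard deviation 6.03e-05). The pair Junb and Ier2 passed in 5 of 16 alternatives, with adjusted p from 0.00108 to 0.933. For Egr1 with Ier2 r lay between 0.71 and 0.84 in these 16, and it was 0.17 over the 8 animals left without the 4 highest for Junb, an alternative added after seeing the data. The compressed scale and 6 arrays per diet limit what can be seen, and detection calls were not used here.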
